A study of Arabidopsis lyrata and Arabidopsis thaliana with 9 samples.

Results

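The genes described here are 45 loci of Arabidopsis thaliana that act in meiosis, the cell division that makes spores and, through them, pollen and egg cells. They were taken from a list of locus identifiers covering the formation of DNA breaks, synapsis, strand exchange, crossover, cohesion and the meiotic divisions. The rule used no measured value, but the list was chosen with earlier results of these data known. All 45 were found among the 27176 gene models listed in the libraries. RNA came from inflorescences of the wild-type Col-0 strain, from plants after bolting (when the flowering stem has grown out) kept in a greenhouse under long days. There was 1 group of 3 directional RNA-seq libraries, with no treatment, no mutant and no other A. thaliana tissue, so levels were described and no condition was compared. The libraries held 6263918, 14004158 and 6330211 counts. Other samples of the series came from A. lyrata, and their gene identifiers were not matched to these loci.

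In meiosis, chromosomes are cut by programmed double-strand breaks, the broken ends search for the homologous chromosome, and a part of the repair events becomes crossovers that hold the homologues together until they separate. A protein axis and the synaptonemal complex organise the chromosomes during this process, and cohesin, guarded by shugoshins, keeps sister chromatids joined until the second division. In an inflorescence only the young anthers and ovules hold meiotic cells, and many of the repair proteins also work in dividing somatic cells. In such a bulk sample, fewer meiotic cells and less RNA per cell cannot be told apart.

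Levels are given as CPM, the counts of a gene scaled to a common library total, and, for most comparisons between genes, as CPM per kb of exon. Means are given ± SD over the 3 libraries (n = 3). The labels do not say that the libraries came from separate plants, so the spread may be partly technical.

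The 45 genes were mostly detected but low. At 1 CPM or more in every library there were 35 of them (77.8%), against 65.9% of all models listed, and at 10 CPM or more in every library there were 12 (26.7%), against 46.4% of all models. These shares, and the counts at 1 CPM in groups and lists below, are not corrected for length. The 45 genes had longer messages, as given below, which raises their CPM at a like level per kb. All 45 together held 11573 counts, or 0.0439% ± 0.00140 of a library. The 5 most counted genes held 44.4% of these, and 17 genes had fewer than 100 counts over the 3 libraries. The median gene stood at 5.23 ± 0.734 CPM, below the median of 8.88 ± 0.164 CPM over all models. Per length the gap was wider, 2.27 ± 0.168 against 5.86 ± 0.0800 CPM per kb. The highest of the 45 in mean level per length, SGO2, lay at percentile 70.2 of all models. Meiotic genes had long messages cut into many exons, with a median of 2199 exonic bases in 13 exons, against 1486 bases in 4 exons over all models.

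**Figure D1:**
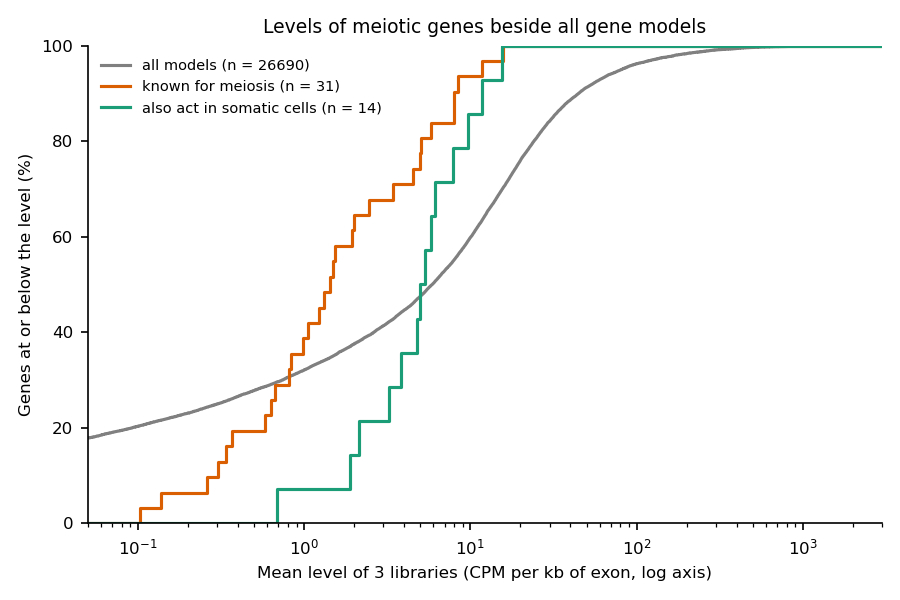
Share of genes at or below each level, in CPM per kb of exon on a log axis, as the mean of 3 libraries, for all models and for the 45 meiotic genes in their 2 classes. The curve of the 31 genes known for meiosis lies to the left, over most of its length, of that of the 14 genes that also act in somatic cells, whose class medians were 1.44 and 5.38 CPM per kb.

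Genes also known from somatic repair or division were mostly the higher ones. The 31 genes known for meiosis had a median of 1.63, 1.14 and 1.54 CPM per kb in libraries 1, 2 and 3, and the 14 genes also known from somatic cells 5.64, 5.18 and 5.33 CPM per kb. The class medians did not overlap over the libraries. Of the 14 genes, 11 stood above the median of the 45, and of the 31 genes, also 11. This division was made from prior knowledge with earlier results of these data known, and no test was made of it. Each class covered a wide range of mean levels, from 0.103 to 15.7 CPM per kb for the 31 genes and from 0.689 to 15.4 CPM per kb for the 14.

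**Figure D2:**
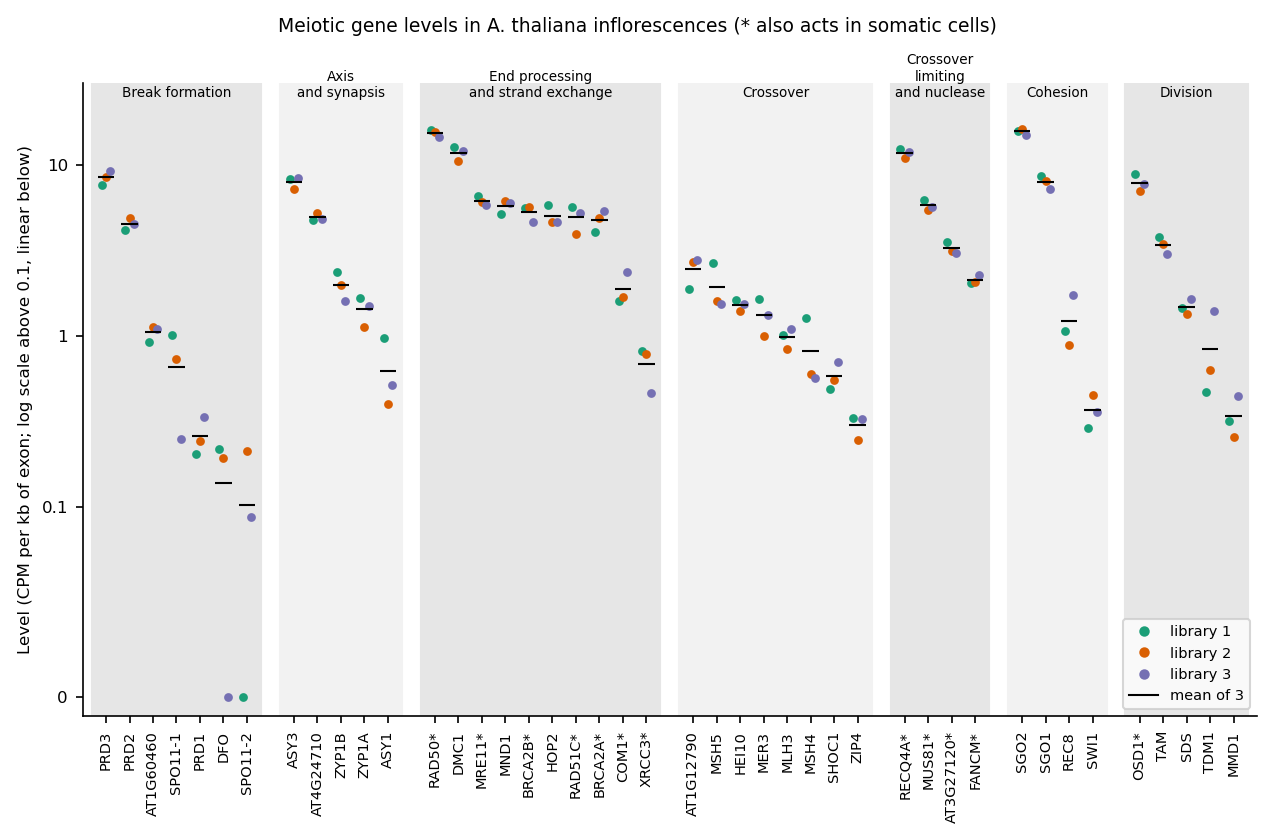
Level of 43 of the 45 genes in CPM per kb of exon, on an axis that is logarithmic above 0.1 and linear below, with 1 point per library, a line at the mean of 3 libraries, and genes grouped by role. SGO2 and RAD50 are highest at 15.7 and 15.4 CPM per kb, and SPO11-2 and DFO are lowest, each with a library at 0.

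Ordered by level, most neighbouring genes could not be separated. In 7 of the 44 neighbouring pairs every library of the higher gene lay above every library of the lower gene. These steps included those from RAD50 to DMC1, OSD1 to MRE11, AT3G27120 to AT1G12790 and SHOC1 to SWI1.

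The machinery that makes the breaks held the lowest genes of the 45. Its 7 genes had a median of 0.666 ± 0.302 CPM per kb, and 3 of them reached 1 CPM in every library. SPO11-1 (AT3G13170) and SPO11-2 (AT1G63990) encode the catalytic subunits, related to an archaeal topoisomerase, that cut the DNA. SPO11-1 had 8, 13 and 2 counts in libraries 1, 2 and 3, which are 1.01, 0.732 and 0.249 CPM per kb. SPO11-2 had 0, 5 and 1 counts, which are 0, 0.214 and 0.0948 CPM per kb. SPO11-2 was thus lower than SPO11-1 in all 3 libraries, though both rest on few counts. The pooled ratio of SPO11-1 to SPO11-2 per length was 5.04, with an exact 95% counting interval of 1.99 to 15.1, and it was 3.29 without library 1 and 13.1 without library 2. A count of 0 allows up to 0.479 CPM in library 1, 0.214 in library 2 and 0.474 in library 3, for counting error only.

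DFO (AT1G07060), needed for break formation, had 3 counts in all, at 0.218, 0.195 and 0 CPM per kb. PRD1 (AT4G14180), a further protein needed for breaks, stood at 0.261 ± 0.0679 CPM per kb. The other accessory genes were higher. PRD3 (AT1G01690) was the highest of the break group at 7.63, 8.49 and 9.26 CPM per kb, and all 3 of its libraries lay above every value of the 6 other genes of the group. PRD2 (AT5G57880) followed at 4.54 ± 0.378 and AT1G60460 at 1.05 ± 0.106 CPM per kb. AT1G60460 was listed in this group by its locus and carries no name in the annotation used here. SPO11-2 overlaps AT1G63980 on the opposite strand over 461 bases of gene span, introns included, as for the other overlaps given here. That neighbour stood at 147 CPM, while SPO11-2 itself had 0.172 ± 0.179 CPM. A long non-coding RNA, AT1G08647, lies over it on the same strand for 168 bases, and no level of it was used here. PRD1 overlaps AT4G14190 over 999 bases, and PRD2 shares 20.0% of its 50-base words with AT5G57887, which lies over it on the same strand and stood at 5.71 CPM. The levels of PRD1 and PRD2 are therefore less certain.

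The axis and synapsis group had a median of 1.98 ± 0.377 CPM per kb over 5 genes, of which 4 reached 1 CPM in every library. ASY1 (AT1G67370) is a HORMA-domain protein of the chromosome axis and ASY3 (AT2G46980) the coiled-coil protein that recruits it. ASY3 stood at 8.26, 7.25 and 8.33 CPM per kb, the highest of the group. ASY1 was the lowest, at 0.968, 0.399 and 0.516 CPM per kb. The axis partners thus differed widely in RNA level, with no overlap between their libraries. AT4G24710, which the annotation describes only as a protein like the pachytene checkpoint AAA ATPase, stood at 4.95 ± 0.251 CPM per kb.

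ZYP1A (AT1G22260) and ZYP1B (AT1G22275) encode the transverse filament of the synaptonemal complex, the coiled-coil rods that bridge the paired axes. They are neighbours on chromosome 1 of TAIR10.1, with ZYP1A at 7859630 to 7865263 on the minus strand and ZYP1B at 7867067 to 7872715 on the plus strand, so that their starts face each other. Their coding sequences matched at 2378 of 2556 aligned bases (93.0%), with a longest identical run of 109 bases. Among gap-free windows of 100 aligned coding bases, the one with the most differences is shown, where reads can tell the copies apart. It is not typical of the pair, which is more alike elsewhere. It covers coding positions 1185 to 1284 of each gene, from RefSeq on TAIR10.1, and the 16 positions where they differ are in capitals.
ZYP1A: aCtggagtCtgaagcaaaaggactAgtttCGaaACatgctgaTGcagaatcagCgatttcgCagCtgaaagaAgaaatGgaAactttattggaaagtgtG
ZYP1B: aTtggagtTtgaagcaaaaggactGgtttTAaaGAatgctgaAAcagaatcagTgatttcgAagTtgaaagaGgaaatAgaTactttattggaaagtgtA
In libraries 1, 2 and 3, ZYP1A stood at 1.68, 1.14 and 1.50 CPM per kb and ZYP1B at 2.37, 1.98 and 1.61. ZYP1B was higher in each library, with a ratio of ZYP1A to ZYP1B of 0.708, 0.575 and 0.929. Of their 50-base words, 5.51% of ZYP1A and 5.35% of ZYP1B occur in the other copy, and how such reads were counted is not known.

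The upstream regions were searched for short words bound by cell-cycle factors. E2F factors drive genes of DNA replication and repair in S phase. Searched on both strands in the 250 bases before each gene start, the words TTTCCCGC, TTCCCGCC, TTTGGCGC and TTGGCGCC, some of which overlap each other, were found before 4 of the 45 genes (8.89%) and before 1.28% of 26689 genes. The 4 genes were ZYP1A, ASY3, BRCA2A (AT4G00020) and BRCA2B (AT5G01630), and the last pair are copies of each other. The windows are printed because they show where the word lies. They are from the RefSeq genome of TAIR10.1, 5′ to 3′ toward the gene, with the E2F words, or their reverse complements, in capitals.
ZYP1A, chr1:7865264-7865513, minus strand: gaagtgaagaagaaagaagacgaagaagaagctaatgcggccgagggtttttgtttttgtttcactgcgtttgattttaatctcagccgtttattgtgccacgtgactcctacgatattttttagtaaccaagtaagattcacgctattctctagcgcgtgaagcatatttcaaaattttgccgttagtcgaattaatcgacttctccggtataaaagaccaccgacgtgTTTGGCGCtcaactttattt
ASY3, chr2:19304272-19304521, minus strand: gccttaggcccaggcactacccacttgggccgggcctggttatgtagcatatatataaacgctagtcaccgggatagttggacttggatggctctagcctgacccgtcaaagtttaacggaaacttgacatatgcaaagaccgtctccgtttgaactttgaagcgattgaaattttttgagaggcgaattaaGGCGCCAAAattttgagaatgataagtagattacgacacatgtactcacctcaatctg
BRCA2A, chr4:10505-10754, minus strand: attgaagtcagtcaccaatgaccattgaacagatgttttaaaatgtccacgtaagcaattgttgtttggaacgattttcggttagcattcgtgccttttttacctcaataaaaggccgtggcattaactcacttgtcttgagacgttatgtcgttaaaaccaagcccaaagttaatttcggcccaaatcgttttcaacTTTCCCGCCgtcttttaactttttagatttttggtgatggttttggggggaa
BRCA2B, chr5:241107-241356, minus strand: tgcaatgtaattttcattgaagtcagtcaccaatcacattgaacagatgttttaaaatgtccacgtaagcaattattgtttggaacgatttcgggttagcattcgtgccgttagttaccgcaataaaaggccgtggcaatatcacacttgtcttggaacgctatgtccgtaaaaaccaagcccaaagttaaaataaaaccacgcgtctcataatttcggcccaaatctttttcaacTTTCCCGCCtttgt
The word AACGG, the core of the element bound by MYB factors of mitotic genes, was found before 19 of the 45 (42.2%) and before 20.6% of all genes. The telobox word AAACCCTA was found before 1 of the 45 (2.22%) and before 4.44% of all genes. A word in a window is a description of sequence and does not show that a factor binds there.

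End processing and strand exchange had the highest median of the 7 role groups, at 5.26 ± 0.349 CPM per kb over 11 genes, of which 10 reached 1 CPM in every library. Most of the 11 are also placed among the genes with somatic roles, and no gene of the break and axis groups is. RAD50 (AT2G31970) and MRE11 (AT5G54260) form the complex that holds and trims broken ends, in meiotic and somatic cells alike. RAD50 was the highest of the group at 16.1, 15.6 and 14.6 CPM per kb. MRE11 stood at 6.17 ± 0.374 CPM per kb. Their partner NBS1, no member of the 45 and named after its value was seen, was at 5.39 ± 1.34 CPM per kb. COM1 (AT3G52115), a cofactor needed to process meiotic break ends, was lower at 1.89 ± 0.423 CPM per kb.

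The broken end invades the homologue as a filament of recombinase. DMC1 (AT3G22880) is the recombinase specific to meiosis. It stood at 12.7, 10.5 and 12.1 CPM per kb, below every library of RAD50 and above every library of MRE11. Unlike most genes known for meiosis, it lay above the median of the class with somatic roles in each library. It shared no 50-base word with another gene.

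HOP2 (AT1G13330) and MND1 (AT4G29170) form a heterodimer that helps the recombinases to invade. They stood close together at 5.02 ± 0.668 and 5.76 ± 0.537 CPM per kb, and their libraries overlapped. HOP2 overlaps AT1G13340 on the opposite strand over 1151 bases, and that neighbour stood at 0.495 CPM. RAD51C (AT2G45280) and XRCC3 (AT5G57450), strand-exchange factors that act as a complex in repair, stood apart, with no overlap. RAD51C was at 4.96 ± 0.891 CPM per kb and XRCC3, the lowest of the group, at 0.819, 0.785 and 0.463. Of further strand-exchange factors, which were no members and, apart from RAD51B, were picked for naming with their values known, RAD51D stood at 5.37 ± 0.337, XRCC2 at 2.99 ± 0.496 and RAD51B at 0.989 ± 0.347 CPM per kb.

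BRCA2A and BRCA2B load recombinase onto the broken ends. They are near-copies, with 96.1% identity over 3433 aligned coding bases and 91.5% over 211 aligned bases of the upstream windows printed above, and both windows hold the same E2F words. BRCA2A stood at 4.03, 4.91 and 5.41 CPM per kb and BRCA2B at 5.61, 5.67 and 4.66. BRCA2B was higher in libraries 1 and 2 and BRCA2A in library 3, with a ratio of BRCA2A to BRCA2B of 0.915 ± 0.224. Without library 1 the mean ratio was 1.01, so neither copy was higher beyond the spread. The counted model of BRCA2A holds coding bases only. By coding length the ratio was 0.807, and with no length correction 0.830. The copies share 705 of their 50-base words, 20.06% of BRCA2A and 18.2% of BRCA2B, so each level may hold reads of the other.

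The crossover genes were mostly low. Their 9 members had a median of 1.32 ± 0.314 CPM per kb, and 8 reached 1 CPM in every library. MSH4 (AT4G17380) and MSH5 (AT3G20475) form a clamp on recombination intermediates. MSH5 stood at 2.66, 1.60 and 1.54 CPM per kb and MSH4 at 1.28, 0.599 and 0.568. MSH4 was lower than MSH5 in each library, with a ratio of 0.407 ± 0.0630. Both partners, like 19 of the 37 members with 30 counts or more, were highest in library 1. MSH4 overlaps AT4G17390, at 335 CPM, on the opposite strand over 44 bases.

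MER3 (AT3G27730) is a helicase that extends the invading strand, and stood at 1.32 ± 0.318 CPM per kb. HEI10 (AT1G53490), a ubiquitin-ligase-like protein whose foci mark crossover sites, stood at 1.52 ± 0.119 CPM per kb. SHOC1 (AT5G52290), an XPF-like protein, was at 0.582 ± 0.113 CPM per kb, and it overlaps AT5G52280, at 95.6 CPM, over 155 bases. ZIP4 (AT5G48390), a scaffold of the crossover complexes, was the lowest of the group at 0.332, 0.247 and 0.328 CPM per kb. AT1G12790, annotated as like a DNA ligase and without a name, was at 2.46 ± 0.504 CPM per kb. HEI10 overlaps MRD1, at 0.0238 CPM, over 1446 bases and MUM4, at 112 CPM, over 9 bases, both on the opposite strand. It also overlaps the long non-coding RNA AT1G07887 on the same strand over 839 bases, for which no level was used here, so the level of HEI10 is less certain. MER3 overlaps ARI4, at 0 CPM, on the opposite strand over 524 bases.

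MLH3 (AT4G35520), a subunit of the endonuclease that resolves crossover intermediates, stood at 1.01, 0.844 and 1.09 CPM per kb. Its libraries overlapped those of MER3 and lay above every library of ZIP4 and SHOC1.

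The genes that limit crossovers or cut intermediates outside the main pathway stood higher, with a median of 4.52 ± 0.336 CPM per kb, and all 4 reached 1 CPM in every library. All 4 are also placed among the genes with somatic roles. RECQ4A (AT1G10930), a helicase that unwinds recombination intermediates, was the highest at 12.3, 10.97 and 11.96 CPM per kb. MUS81 (AT4G30870), a nuclease that makes a minor class of crossovers, stood at 5.79 ± 0.421. FANCM (AT1G35530), a helicase that directs repair away from crossovers, was the lowest at 2.04, 2.08 and 2.28 CPM per kb. AT3G27120, listed here by locus and annotated only as a nucleoside triphosphatase, was at 3.25 ± 0.265 CPM per kb. Its gene model is marked as partial, so the length is a lower limit and the level per kb an upper one. The 4 genes thus span a range with no overlap between RECQ4A and the rest.

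The cohesion genes divided sharply. Their median was 4.61 ± 0.197 CPM per kb over 4 genes, of which 3 reached 1 CPM in every library. SGO1 (AT3G10440) and SGO2 (AT5G04320), the shugoshins that protect centromeric cohesin at the first division, were both high. SGO2 stood at 15.8, 16.3 and 15.0 CPM per kb, the highest mean of all 45 genes, and SGO1 at 8.60, 8.10 and 7.26. The libraries of SGO2 overlapped those of RAD50. The ratio of SGO1 to SGO2 was 0.508 ± 0.0315, with no overlap. REC8 (AT5G05490), the meiotic kleisin that closes the cohesin ring, stood at 1.07, 0.887 and 1.74 CPM per kb. SWI1 (AT5G51330), which shields meiotic cohesin from removal, was the lowest at 0.290, 0.454 and 0.359 CPM per kb. Every library of either shugoshin lay above every library of REC8 and SWI1.

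Cohesin genes outside the 45 were higher than REC8 in mean level per length. Of 12 genes of cohesin and its regulators, all 12 reached 1 CPM in every library, and their median was 9.22 ± 0.388 CPM per kb. SMC1, SMC3 and SCC3, subunits shared by mitotic and meiotic cohesin, stood within a narrow band of 28.8 ± 1.18, 29.0 ± 1.23 and 28.5 ± 1.12 CPM per kb. These subunits were picked for naming with their values known. The kleisins differed by far more. SYN4 was the highest of the list at 33.7 ± 1.67 CPM per kb, SYN3, also named after its value was seen, stood at 4.81 ± 1.23, and SYN2 was the lowest of the list at 2.40 ± 1.07. REC8 was below all 3 in mean level, and its library 3, at 1.74, lay above the lowest SYN2 library, at 1.64 CPM per kb.

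The division genes govern entry into and exit from the meiotic divisions. Their median was 1.48 ± 0.158 CPM per kb over 5 genes, and 3 reached 1 CPM in every library. OSD1 (AT3G57860), an inhibitor of the anaphase-promoting complex needed to enter the second division, was the highest at 8.81, 7.06 and 7.70 CPM per kb. TAM (AT1G77390), an A-type cyclin, stood at 3.41 ± 0.386, and SDS (AT1G14750), a meiotic cyclin also needed for strand exchange with the homologue, at 1.48 ± 0.158. TDM1 (AT4G20900), needed to leave meiosis after the second division, stood at 0.472, 0.633 and 1.40 CPM per kb. Its library 3 was the highest, and without that library its mean fell from 1.13 to 0.748 CPM. TDM1 overlaps TUB9, a tubulin gene at 104 CPM, on the opposite strand over 457 bases. MMD1 (AT1G66170), a PHD-finger protein of male meiosis, was the lowest at 0.320, 0.258 and 0.443 CPM per kb. OSD1 was separated from the other 4 genes in every library.

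Genes of the same processes that are not among the 45 had higher medians. A list of 19 further genes of meiosis and repair had a median of 3.85 ± 0.318 CPM per kb, and 18 reached 1 CPM in every library. Its highest was ASK1, a subunit of SCF ubiquitin ligases, at 168 ± 13.3 CPM per kb, and its lowest RAD51B. A list of 7 genes of meiotic cell division had a median of 13.2 ± 0.716 CPM per kb, and all 7 reached 1 CPM. Its highest was CDKA;1, the main cyclin-dependent kinase, at 37.9 ± 2.16, and its lowest PS1, which orients the spindles of male meiosis, at 5.39 ± 0.409 CPM per kb. The medians of all 3 lists stood above that of the 45 genes.

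The 3 libraries were compared gene by gene with a chi-square test of raw counts against library totals, which asks if they differ by more than counting error and compares no conditions. Of the 37 meiotic genes with 30 counts or more, 0 passed an adjusted p of 0.05 (Benjamini-Hochberg over 18486 models), against 11.5% of all models tested. At an unadjusted p under 0.05 there were 2 of the 37, a share near that threshold itself, against 23.7% of all models. The genes were MSH5, with a chi-square adjusted p of 0.0995, and MSH4, with one of 0.129. They are the partners of the clamp, and both were highest in library 1. That was the commonest pattern, as 19 of the 37 genes were highest in library 1, 7 in library 2 and 11 in library 3. In CPM, MSH5 stood at 7.34, 4.43 and 4.27 and MSH4 at 3.19, 1.50 and 1.42. Since a gene of few counts has less chance to pass, models within the counts of the 37 genes, 32 to 1838, were counted as well. Of those, 7.94% were called. That range held 15012 of the 18486 models tested, and within it the models were not matched to the counts of the 37 genes.

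**Figure D3:**
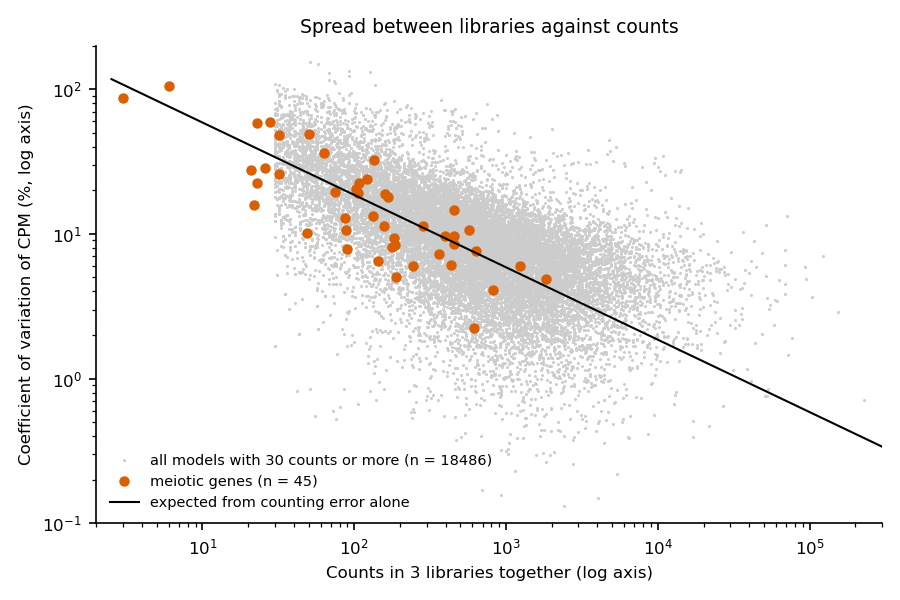
Coefficient of variation of CPM over the 3 libraries in percent against the counts of a gene in all 3, both on log axes, for all 45 meiotic genes and the 18486 models with 30 counts or more, with a line for counting error alone. The meiotic genes scatter about the line, and of the 37 with 30 counts or more, 18 lie above it.

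The spread of the meiotic genes was near what counting gives. Their coefficient of variation was above that of counting error for 18 of 37 (48.6%), against 58.1% of all models. The median ratio of observed to counting variation was 0.980 against 1.14. The 2 sets were not matched for counts, and in genes of few counts the counting error hides more of any other spread. The biological coefficient of variation, the spread edgeR estimates beyond counting, had a median of 0.107 over the 34 meiotic genes kept by its filter and 0.0746 over 17301 models. For genes of few counts this estimate is drawn toward values shared by genes of like level. Of the other lists, 2 of 18 tested genes of meiosis and repair were called by the chi-square test, ASK1 (adjusted p = 0.00641) and TOPII, a topoisomerase (adjusted p = 5.21e-05), a share near the 11.5% of all models. Of the genes tested, the test called 0 of 7 for meiotic cell division and 3 of 12 for dividing cells. It called 0 of 3 for early anthers, 1 of 3 for ovules and 1 of 6 for flowers. For tapetum it called 3 of 11, and for late pollen 5 of 7. Of 12 cohesin genes 2 were called, SYN2 (adjusted p = 0.00031) and SYN3 (adjusted p = 0.00883). In CPM, SYN2 stood at 10.4, 4.71 and 5.53, and SYN3 at 11.8, 9.28 and 15.5. Thus SYN2 was highest in library 1 and SYN3 in library 3.

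**Figure D4:**
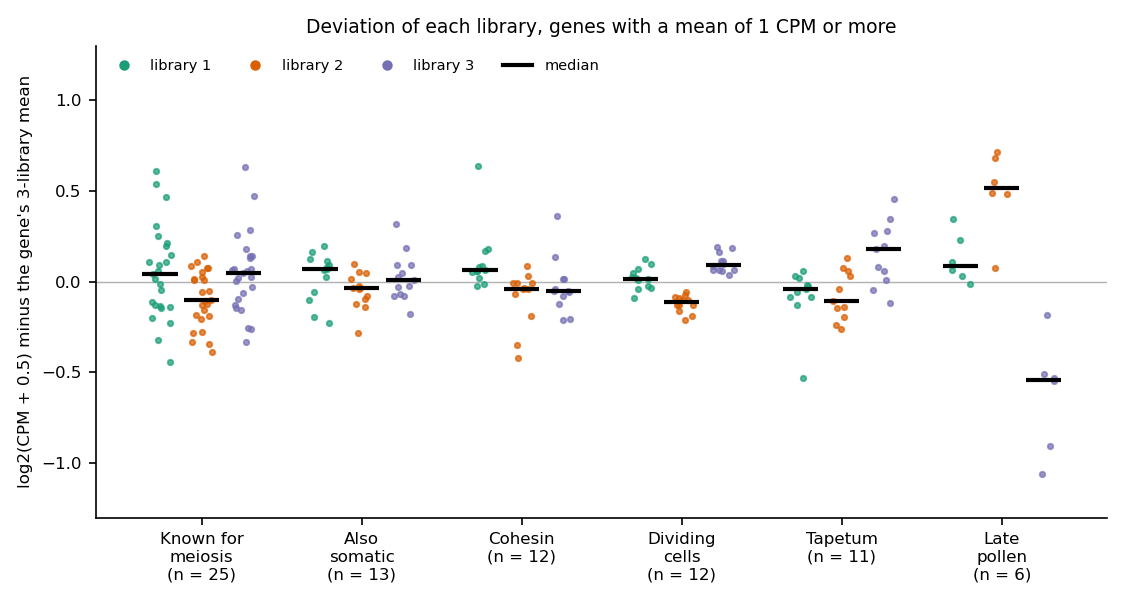
Deviation of each library from a gene's mean of 3 libraries, in log2(CPM + 0.5), for genes with a mean of 1 CPM or more in the meiotic classes and 4 marker or pathway lists. Points are genes and lines are medians. The 6 late pollen genes lie lowest in library 3 and, except for 1 that is highest in library 1, highest in library 2.

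Late pollen markers differed between the libraries by far more than the meiotic genes did. Over 38 meiotic genes with a mean of 1 CPM or more, the median log2 ratio of CPM plus 0.5 was 0.11 for library 1 over library 2, 0.05 for library 1 over library 3 and -0.09 for library 2 over library 3. The same over all models was 0.01, 0.00 and -0.01. Of the 38 genes, library 1 was above library 2 for 23 and above library 3 for 21, and library 2 was above library 3 for 15. Of all 18654 models with such a mean, the same held for 9692, 9372 and 9077. The late pollen markers had medians over 6 genes of -0.44, 0.58 and 1.06 in the same order, and a summed level of 724, 978 and 470 CPM in libraries 1, 2 and 3. Markers of dividing cells were lowest in library 2 for 12 of 12 genes, with summed levels of 677, 620 and 724 CPM, and tapetum markers, of the layer that feeds the pollen, summed to 568, 558 and 632 CPM. Early anther markers, 3 genes, summed to 77.7, 66.1 and 68.1 CPM, and ovule markers, also 3 genes, to 48.9, 41.6 and 50.6 CPM. The part of these differences in the levels of the meiotic genes was not tested.

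The markers of flowers stood at 1 CPM or more in every library for 6 of 6 genes, and those of seeds and roots for 0 of 2, at 0.467 CPM together. Because the labels do not say whether counting used the strand, the 19 meiotic genes that overlap a gene on the opposite strand are less certain. Of the 45 genes, 39 shared no 50-base word with another gene.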

How the data were processed

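RNA-seq counts per gene model of 3 A. thaliana inflorescence libraries were used as the authors deposited them, as raw whole-number counts. The submitters' processing notes name TAIR10. For the aligner, the counter and the use of strand, names and settings were not given in the sources used here. Samples were grouped by their labels. The members and lists were chosen with earlier results of these data known.

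CPM was computed from raw library totals and divided by the exon length of the counted model in the RefSeq annotation of TAIR10.1, which gave a length for 26690 of 27176 models. The models of AT4G24710, BRCA2A, MLH3 and TDM1 hold coding bases only, so their levels per kb may be too high. Depth was 6263918 to 14004158 counts, and 0 counts allow up to 3 counts. Intervals are exact at 95% and, like these limits, cover counting error only.

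Counts of models with 30 or more in all were compared over libraries by a chi-square test, adjusted over all models with a threshold of 0.05, after the test was checked on simulated counts. Dispersions came from edgeR 4.0.16 with TMM scaling, an intercept-only design and filterByExpr, with DESeq2 1.42.0 as an alternative, in R 4.3.3. Python 3.11.15, numpy 2.4.6, scipy 1.17.1, pandas 2.3.3, matplotlib 3.10.9 and mafft 7.526 did the rest. Log2 ratios between libraries used CPM plus 0.5.

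Of the 45 members, 43 are given singly and 2 are not reported here beyond their part in the group values. Those given have values per library for the highest and the lowest of each role and for paralog pairs, and the highest and the lowest of each pathway list. Of the members, 4 have no name in the annotation and are given by locus. Alternatives were other scalings, lengths, detection limits, count minimums and pseudocounts, and leaving out each library.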

Additional observations from a re-analysis of the deposited data

How the results depend on the processing

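The ratio of BRCA2A to BRCA2B, which lay within its spread of 1, turned from 0.915 to 1.01 without library 1, and no other paralog ratio or library difference changed direction. The number detected ran from 32 genes at 2 CPM to 42 at 0.5 CPM, and the chi-square test called 0 members under every setting run. It called 11.4% of all models with TMM, 9.16% at 1 count, 12.4% at 100 counts and 3.99% to 8.64% with a library left out, so 0 members says less there. With coding length in place of exon length, the median member stood at 3.29 CPM per kb, the median of the class with somatic roles at 6.05 CPM per kb and the ratio of SGO1 to SGO2 at 0.458. With no length correction that ratio was 0.557. The median biological coefficient of variation was 0.139 with no filter (0.0910 over all models), and DESeq2's gene-wise estimate sat at its lowest value, 0.0001, for members and all models alike. Leaving out each library gave 0.106 to 0.148. Alternatives for the class medians, and the left-out libraries for the coefficient of variation, were chosen after seeing the data. Leaving out 1 library moved the mean of SPO11-2 by over 1.5 times, to 0.0790 CPM without library 2, and that of TDM1, as given above. Differences between libraries have no value with a library left out. No paired analysis was possible because there was 1 group of A. thaliana libraries. Depth limits genes under 30 counts, 8 of the 45, which were not tested.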
